A study of Mus musculus with 10 samples.

Results

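The genes described here are 10 genes of basal and stem-like keratinocytes: the basal keratin genes Krt5, Krt14 and Krt15, the transcription factor genes Trp63, Sox2, Klf5 and Pitx1, the Polycomb gene Bmi1, the cadherin gene Cdh3 and the hyaluronan receptor gene Cd44. They were taken by symbol from a list of such genes, and all 10 were found among the 27151 genes of the table. The RNA came from tongues of C57BL/6J mice that had all been exposed to 4NQO, a chemical carcinogen that causes lesions of the oral epithelium. In 4 libraries the mice had received vehicle, and in 6 libraries SP2509, an inhibitor of the histone demethylase LSD1. The titles of the latter read SP2509h, with the h unexplained. Age, sex, dose, duration and lesion stage are not stated in the labels, no library of tongue without 4NQO was analysed here, and whether 2 libraries can share a mouse is not stated either. The p-values therefore reflect only how much these libraries varied, and some of that variation may be technical.

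The stratified epithelium of the tongue renews from a basal layer that sits on the basement membrane. Basal cells join the type II keratin of Krt5 and the type I keratin of Krt14 into filaments, and p63, the product of Trp63, is required to form and maintain the layer and activates both keratin genes. Cells that leave the layer lower these keratins and make suprabasal ones such as the product of Krt13. The tongue is also rich in muscle, so the level of an epithelial gene in bulk RNA depends on how much epithelium a piece holds. Fewer cells of a type and less RNA per cell cannot be told apart in such samples.

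Reads of the basal keratins can be shared with keratins of wound and stress responses, and the stretches below show why. Each is the longest run of identical bases between 2 coding sequences in the GENCODE M21 transcripts (GRCm38), counted from the first base of the start codon. Letters are in lower case throughout, since the whole run is the shared part.
Krt14 coding bases 306 to 439, shared with Krt16: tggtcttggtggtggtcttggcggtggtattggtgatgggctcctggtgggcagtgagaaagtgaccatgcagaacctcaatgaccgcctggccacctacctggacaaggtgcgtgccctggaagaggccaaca
Krt14 coding bases 1216 to 1286, shared with Krt17: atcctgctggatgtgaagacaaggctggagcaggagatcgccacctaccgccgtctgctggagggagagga
Of the 1649 stretches of 50 bases in the Krt14 transcript, 11.4% also occurred in Krt16 and 3.34% in Krt17. Of the 2148 in the Krt5 transcript, 6.98% also occurred in Krt6a and 2.28% in Krt6b. Krt15 shared 1 of 1651 with Krt17, and Krt5 and Krt14 shared 0 with each other. How the counting treated reads that map to several genes is not given in the sources used here, so the levels of Krt5 and Krt14 carry this uncertainty and that of Krt15 very little of it.

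Krt5 is also the keratin whose RefSeq promoter window (build GRCm38.p6) begins next to its annotated start. The 250 bases before that start, on the minus strand at chr15:101712906-101713155, are shown because Krt5 is one of the 4 genes that were higher in 5 of the 6 SP2509 libraries than in any vehicle library.
Krt5 promoter: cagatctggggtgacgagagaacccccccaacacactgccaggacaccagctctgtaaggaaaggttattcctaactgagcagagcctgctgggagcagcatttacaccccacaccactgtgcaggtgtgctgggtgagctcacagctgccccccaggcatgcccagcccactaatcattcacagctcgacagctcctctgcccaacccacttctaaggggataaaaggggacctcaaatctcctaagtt
Both strands of the windows were searched for the TATA string TATAAA, the AP-1 type string TGANTCA, the KLF and SP type string CCNCNCCC, the SOX type string ACAAAG and the GC box GGGCGG, and none of these strings is in the Krt5 window, so no letter is in capitals. Only exact strings were counted, so the gataaa of the Krt5 window, which differs from TATAAA in its first base, was not. Of 32851 windows, 12.4% held TATAAA, 6.75% TGANTCA, 45.9% CCNCNCCC, 16.5% ACAAAG and 32.7% GGGCGG. Windows were matched for 5 of the 10 genes. Relative to the annotated start, the start used for the Sox2 window lies at -410 bases and that for Krt14 at 1518, inside the gene. CCNCNCCC was found in those of Sox2, Bmi1 and Cd44, GGGCGG in those of Sox2 and Bmi1, where it overlaps CCNCNCCC in places, and ACAAAG in that of Sox2.

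Depth ran from 9180844 to 14768955 reads per vehicle library and from 15748571 to 19375555 per SP2509 library. One read counted as 0.898 to 1.85 normalised reads in the former and 0.727 to 0.873 in the latter. Mitochondrial genes held 35.29 to 52.15% of the reads in vehicle libraries and 23.98 to 32.18% in SP2509 libraries. Outside these genes, 4730016 to 9556668 reads were left per vehicle library and 11076584 to 13829934 per SP2509 library. The groups overlapped in neither measure. The part of this difference in the results was not tested beyond the rescaling outside mitochondrial genes given further below. SP2509 replicates 1 and 2, and 4 and 5, were closer to each other than any other pair within a group. The median absolute log2 difference between the members of a pair was 0.0929 and 0.0996 in these, against 0.139 to 0.370 in the other 19 pairs. Each close pair is averaged to 1 unit in the means and SDs below, which leaves 4 SP2509 units. SP2509 replicate 6 stood apart. Its 9 muscle markers summed to 659961 normalised reads, against 143610 to 306203 in vehicle and 238176 to 322605 in SP2509 replicates 1 to 5. Its 11 keratinocyte reference genes (desmosomal, epithelial splicing and other epithelial genes, none of them among the 10) summed to 10283, against 15465 to 24032 and 25623 to 51048. SP2509 replicates 4 and 5 held up to 342934 normalised reads of 8 lingual gland markers, against 37.1 to 505 in vehicle, and 6 of those 8 markers were at 0 in at least 1 library. The sum of 8 leukocyte markers was 883 to 1663 normalised reads for vehicle libraries and 1143 to 1954 for SP2509 libraries. The part these cell types have in the results below was not tested beyond the covariate fits given.

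Among the basal keratins, Krt5 and Krt14 were the most abundant of the 10 genes and were higher than in any vehicle library in 5 of the 6 SP2509 libraries. Krt5 (ENSMUSG00000061527, chr15:101707070-101712898, minus strand, GRCm38) had 26076, 38797, 23815 and 32485 normalised reads in vehicle replicates 1 to 4. In SP2509 replicates 1 to 6 it had 58564, 56676, 62614, 39724, 40936 and 15202. Replicates 1 to 5 of SP2509 lay above every vehicle library and replicate 6 lay below all of them. The means were 30293 ± 6754 (SD, n = 4) and 43941 ± 21407 (SD, n = 4 units). The log2 fold change was 0.48 ± 0.36 (SE), which did not pass the test (limma over all tested genes, adjusted p = 0.407).

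Krt14 (ENSMUSG00000045545, chr11:100203162-100207548, minus strand) had 29719, 31971, 19769 and 33568 normalised reads in vehicle. In SP2509 it had 65505, 64818, 83205, 45254, 43625 and 19365. As for Krt5, replicates 1 to 5 lay above all vehicle libraries and replicate 6 below the lowest of them. Krt14 averaged 28757 ± 6196 (SD, n = 4) in vehicle and 53043 ± 27477 (SD, n = 4 units) in SP2509, with a log2 fold change of 0.79 ± 0.36 (SE). It was the only one of the 10 genes with an unadjusted limma p under 0.05 over the 10 libraries, and its adjusted p was 0.173.

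Krt15 (ENSMUSG00000054146, chr11:100131758-100135928, minus strand), a type I keratin of basal cells often used as a stem cell marker, did not follow them. Its vehicle values were 5307, 4949, 6850 and 3790 normalised reads, and its SP2509 values 7873, 7501, 4749, 4385, 4117 and 711. The groups overlapped, with replicates 1 and 2 of SP2509 above every vehicle library and replicate 6 far below. Krt15 averaged 5224 ± 1262 (SD, n = 4) and 4349 ± 2861 (SD, n = 4 units), and its log2 fold change was -0.38 ± 0.54 (SE; limma adjusted p = 0.685).

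**Figure D1:**
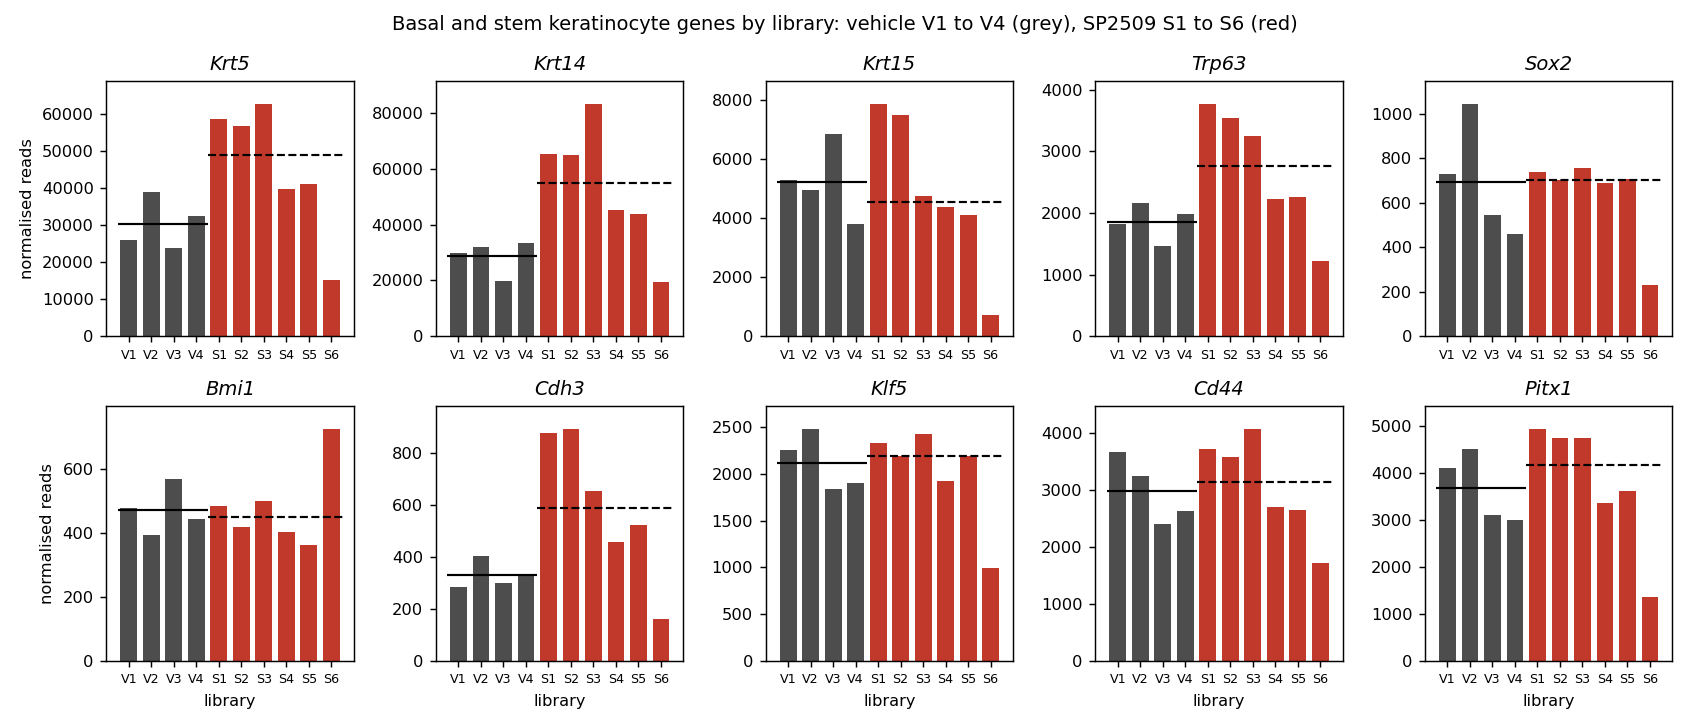
Normalised reads of each of the 10 genes in each library, vehicle V1 to V4 in grey and SP2509 S1 to S6 in red, with a solid line at the vehicle mean and a dashed line at the SP2509 median. SP2509 replicates 1 to 5 sit above all vehicle libraries for Krt5, Krt14, Trp63 and Cdh3, and replicate 6 is the lowest library for 9 genes and the highest for Bmi1.

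Of the transcription factor genes, Trp63 had the pattern of Krt5 and Krt14. Trp63 (ENSMUSG00000022510, chr16:25683763-25892102, plus strand) had 1828, 2159, 1464 and 1982 normalised reads in vehicle and 3767, 3543, 3251, 2221, 2265 and 1221 in SP2509. Replicates 4 and 5 of SP2509 were only just above the highest vehicle library. The means were 1858 ± 296 (SD, n = 4) and 2592 ± 1090 (SD, n = 4 units). The log2 fold change of 0.46 ± 0.28 (SE) did not pass the test (limma adjusted p = 0.295).

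For Sox2, Klf5 and Pitx1 the groups overlapped. Sox2 (ENSMUSG00000074637, chr3:34650405-34652461, plus strand), a factor of tongue progenitors and taste precursors that is also made by Schwann cells, had 727, 1043, 543 and 457 normalised reads in vehicle. In SP2509 replicates 1 to 5 it stayed between 690 and 754, inside the vehicle range, and replicate 6 had 229. Its log2 fold change was -0.15 ± 0.33 (SE; limma adjusted p = 0.805). The sum of 6 Schwann cell markers was 7319 to 15350 for vehicle and 3733 to 8631 for SP2509, with 5 of 6 lower by fold change, and their part in the Sox2 level was not tested.

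Klf5 (ENSMUSG00000005148, chr14:99298691-99315036, plus strand), a zinc finger factor of proliferating basal epithelium, had 2253, 2483, 1836 and 1903 normalised reads in vehicle and 2331, 2193, 2433, 1923, 2194 and 992 in SP2509. All SP2509 libraries but replicate 6 fell within the vehicle range. Pitx1 (ENSMUSG00000021506, chr13:55825051-55836192, minus strand), a homeobox factor of the oral ectoderm, had 4111, 4510, 3118 and 3004 in vehicle and 4947, 4750, 4743, 3372, 3622 and 1355 in SP2509. The log2 fold changes were -0.12 ± 0.23 (SE; limma adjusted p = 0.768) for Klf5 and -0.05 ± 0.32 (SE; limma adjusted p = 0.937) for Pitx1. The exons of Pitx1 overlap an antisense gene and a lincRNA gene of the same strand, and the strand setting of the counting is not given in the sources used here, so reads of these genes may not be separated.

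Bmi1 was the exception in replicate 6. Bmi1 (ENSMUSG00000026739, chr2:18677018-18686629, plus strand) encodes a subunit of Polycomb repressive complex 1 that sustains self-renewal in several tissues and is broadly expressed. It had 477, 395, 567 and 444 normalised reads in vehicle and 483, 419, 500, 402, 361 and 725 in SP2509. Apart from replicate 6 the groups covered much the same range. The means were 471 ± 72.7 (SD, n = 4) and 515 ± 149 (SD, n = 4 units), and the log2 fold change was 0.01 ± 0.18 (SE; limma adjusted p = 0.984).

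Of the surface proteins, Cdh3 encodes P-cadherin, the adherens junction cadherin of basal cells. Cdh3 (ENSMUSG00000061048, chr8:106510891-106557297, plus strand) had 284, 402, 301 and 327 normalised reads in vehicle and 878, 893, 653, 456, 522 and 161 in SP2509. Replicates 1 to 5 again exceeded all vehicle libraries and replicate 6 was below them. The means were 329 ± 52.3 (SD, n = 4) and 547 ± 305 (SD, n = 4 units) (log2 fold change 0.67 ± 0.39, SE; limma adjusted p = 0.280).

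Cd44 (ENSMUSG00000005087, chr2:102811141-102901665, minus strand), the hyaluronan receptor used to mark stem-like cells of oral carcinomas and also carried by leukocytes and fibroblasts, had 3662, 3240, 2404 and 2639 normalised reads in vehicle. In SP2509 it had 3714, 3578, 4076, 2704, 2653 and 1715. The groups overlapped over most of their range. Its means were 2986 ± 572 (SD, n = 4) and 3029 ± 1053 (SD, n = 4 units), and its log2 fold change was 0.00 ± 0.23 (SE; limma adjusted p = 0.992).

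Over the 10 libraries, none of the 10 genes passed the limma threshold of 0.05 on the adjusted p (0 higher, 0 lower), where 9.1% of all tested genes did, 4.95% of them upward and 4.15% downward in shares of all tested genes. At an unadjusted p under 0.05, limma gave 1 of the 10 genes (Krt14) and 4786 of the 17088 tested. The edgeR test on recovered reads called 0 of the 10 and 8.76% of all tested genes. DESeq2 called 1, Krt14, at a log2 fold change of 0.89 and an adjusted p of 0.0385, where 9.4% of genes were called higher. With each close pair averaged, limma called 0% of tested genes, and 0 of the 10 had an unadjusted p under 0.05 (3632 of all genes did). The median log2 fold change of the 10 genes was 0.01, with 6 positive, beside 0.02 over all tested genes.

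None of the 10 genes separated all 6 SP2509 libraries from all 4 vehicle libraries, where 6.54% of tested genes did so upward and 5.11% downward. SP2509 replicate 6 was the lowest of the 10 libraries for 9 of the 10 genes and the highest for Bmi1. Over all tested genes it was the lowest library for 18% and the highest for 21.1%. Relative to the median of SP2509 replicates 1 to 5, its level was 0.150 for Krt15, 0.247 for Cdh3, 0.268 for Krt5, 0.286 for Pitx1 and 0.299 for Krt14. It was 0.324 for Sox2, 0.376 for Trp63, 0.452 for Klf5 and 0.479 for Cd44. Bmi1 stood at 1.73 of that median. Krt15 thus had the lowest level of the 10 in that library relative to the other SP2509 libraries.

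Without SP2509 replicate 6, 4 of the 10 genes were called higher (Krt5, Krt14, Trp63 and Cdh3) and 0 lower, where 11.5% of all tested genes were called higher and 8.71% lower. These are the genes for which replicates 1 to 5 exceed every vehicle library, a pattern that 11.4% of tested genes had. The value for Krt14 was 1.06 ± 0.22 on the log2 scale (SE; limma adjusted p = 0.00679). Cdh3 had 1.01 ± 0.20 (SE; limma adjusted p = 0.00673), Krt5 0.77 ± 0.19 (SE; limma adjusted p = 0.0152) and Trp63 0.67 ± 0.18 (SE; limma adjusted p = 0.0220). With the close pairs averaged as well, 3 of the 10 remained past the threshold, where 4.5% of genes were called higher, and Krt5 did not (limma adjusted p = 0.0515). The other 6 genes had log2 fold changes of -0.12 to 0.22 in the fit without replicate 6. In that fit 7 of the 11 keratinocyte reference genes were also called higher and 0 lower, so epithelial genes outside the 10 were higher in the same libraries. A muscle covariate over all 10 libraries called Krt14 alone (log2 difference 1.44, limma adjusted p = 0.0334), where 3.22% of tested genes were called higher. A covariate of the 8 suprabasal markers called Krt14 (0.72), Trp63 (0.40) and Cdh3 (0.58) higher, with limma adjusted p of 0.0287, 0.0459 and 0.0200, where 9.75% of genes were called higher.

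**Figure D2:**
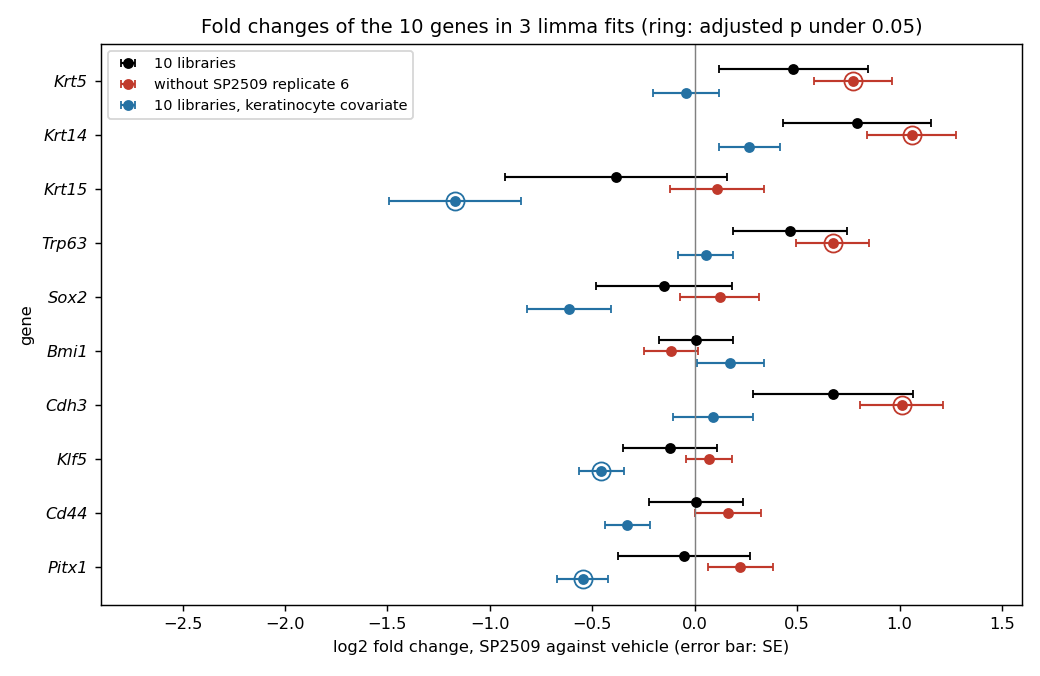
Log2 fold change of SP2509 against vehicle with its SE for each gene in 3 limma fits: 10 libraries in black, without SP2509 replicate 6 in red and 10 libraries with the keratinocyte reference as a covariate in blue, with a ring where the adjusted p is under 0.05. No black point has a ring, Krt5, Krt14, Trp63 and Cdh3 have red rings, and Krt15, Klf5 and Pitx1 have blue rings.

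The levels were then set against the 11 keratinocyte reference genes, to compare libraries at an equal epithelial signal. Those genes differed between the groups themselves, with 10 of 11 positive log2 fold changes, a median of 0.61 and 0 called in the 10-library fit. Epcam, which gland epithelium also expresses, had 957 and 972 normalised reads in SP2509 replicates 4 and 5 and at most 326 elsewhere. With the mean log2 level of the reference genes as a covariate, 3 of the 10 genes were called lower (Krt15, Klf5 and Pitx1) and 0 higher, where 7.48% of tested genes were called lower and 10.8% higher. Krt15 had a log2 difference of -1.17 ± 0.32 (SE; limma adjusted p = 0.0320), Klf5 -0.46 ± 0.11 (SE; limma adjusted p = 0.0146) and Pitx1 -0.55 ± 0.12 (SE; limma adjusted p = 0.0109). Krt5 (-0.04), Trp63 (0.05) and Cdh3 (0.09) lay close to 0 in this fit. Krt14 (0.27, limma adjusted p = 0.241) and Bmi1 (0.17, limma adjusted p = 0.496) were positive and not called. Sox2 (-0.61, limma adjusted p = 0.0590) and Cd44 (-0.33, limma adjusted p = 0.0539) fell just short of the threshold.

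The covariate calls depended on the libraries and on the reference. The same 3 genes were called with the close pairs averaged, where 4.07% of genes were called lower. Without Epcam in the reference 2 were called, where 7.38% of genes were called lower, and Krt15 was not (log2 difference -1.04, limma adjusted p = 0.0568). Without SP2509 replicate 6, Krt15 (-0.18, limma adjusted p = 0.834), Klf5 (-0.28, limma adjusted p = 0.363) and Pitx1 (-0.42, limma adjusted p = 0.230) were not called, and Cd44 was called lower instead (-0.62, limma adjusted p = 0.0356), where 4.52% of genes were called lower.

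Within each library, Klf5 stood 0.97 to 1.26 log2 units above the reference mean in vehicle and 0.03 to 0.96 in SP2509. Pitx1 stood 1.68 to 2.12 above it in vehicle and 0.99 to 1.41 in SP2509. For both genes every SP2509 library, replicate 6 included, lay below every vehicle library, a pattern that 2.19% of all tested genes had. The reference mean was lowest in replicate 6 and higher in SP2509 replicates 1 to 5 than in any vehicle library. Genes that do not fall with the reference in replicate 6 stand high there on this scale. The 2.19% therefore cannot tell how rare the pattern is among epithelial genes, and this was not tested. For Klf5 the gap was small, since replicate 6 at 0.96 was next to the lowest vehicle library at 0.97. Cd44 was at 1.49 to 1.67 in vehicle, 0.78 to 0.96 in SP2509 replicates 1 to 5 and 1.74 in replicate 6. Counting only replicates 1 to 5, Bmi1, Klf5, Cd44 and Pitx1 lay below every vehicle library, but so did 43.5% of all tested genes, close to the share among the 10.

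**Figure D3:**
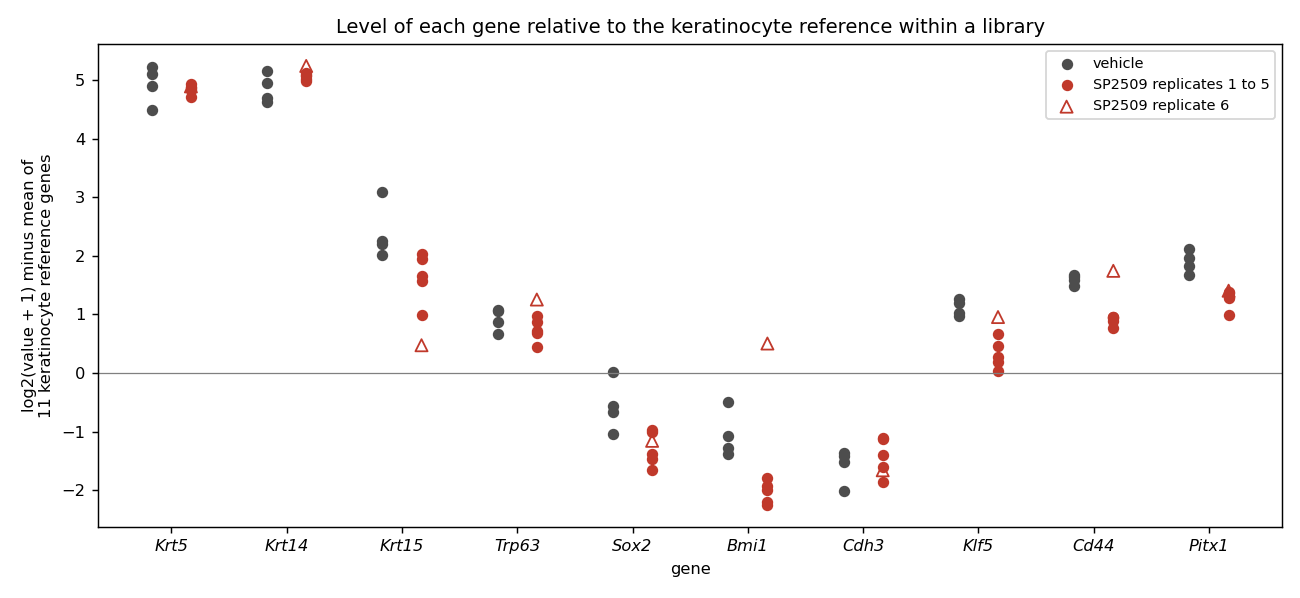
Difference between log2(value + 1) of each gene and the mean of the 11 keratinocyte reference genes in the same library, on a log2 scale, for vehicle (grey), SP2509 replicates 1 to 5 (red) and SP2509 replicate 6 (open triangle). Klf5 and Pitx1 have all SP2509 points below all vehicle points, and replicate 6 is the highest point for Krt14, Trp63, Bmi1 and Cd44.

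Ratios between keratins within a library do not depend on the scaling, and 3 were tested. The ratio of Krt14 to its filament partner Krt5 was 1.14, 0.824, 0.830 and 1.03 in vehicle and 1.12, 1.14, 1.33, 1.14, 1.07 and 1.27 in SP2509. Vehicle replicate 1 lay within the SP2509 range and the other vehicle libraries below it. The mean log2 ratio was higher by 0.31 in SP2509 (two-sided exact permutation test over 210 regroupings, p = 0.0190, adjusted p = 0.0286 over the 3 ratios). Over 8 units the difference was 0.35 (exact permutation p = 0.0857, adjusted p = 0.129). With each library left out in turn, the adjusted exact permutation p was 0.0357 to 0.143, and it stayed under 0.05 only without vehicle replicate 1 or vehicle replicate 4. Krt16, which shares sequence with Krt14, averaged 5682 ± 1762 (SD, n = 4) normalised reads in vehicle and 15131 ± 10449 (SD, n = 4 units) in SP2509, and Krt6a, which shares sequence with Krt5, 4604 ± 1369 (SD, n = 4) and 11711 ± 6526 (SD, n = 4 units). Krt17, which also shares sequence with Krt14, averaged 11729 ± 3957 (SD, n = 4) and 28455 ± 12956 (SD, n = 4 units). It was called higher over the 10 libraries (log2 fold change 1.24, limma adjusted p = 0.0319). Krt6b, which also shares sequence with Krt5, averaged 4791 ± 1959 (SD, n = 4) and 12815 ± 10151 (SD, n = 4 units). The part of shared reads in this ratio, and in the ratios below that also hold Krt14, was not tested.

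The ratio of Krt15 to Krt14, both type I keratins, was 0.179, 0.155, 0.346 and 0.113 in vehicle and 0.120, 0.116, 0.0571, 0.0969, 0.0944 and 0.0367 in SP2509. Only vehicle replicate 4 reached into the SP2509 range. The mean log2 ratio was -1.18 apart (SP2509 minus vehicle; exact permutation p = 0.0190, adjusted p = 0.0286), and -1.38 over 8 units (exact permutation p = 0.0571, adjusted p = 0.129). With each library left out in turn, its adjusted exact permutation p was 0.0357 to 0.143, and it stayed under 0.05 only without vehicle replicate 4. The ratio of Krt14 to Krt13, basal against suprabasal, ran from 0.866 to 2.26 in vehicle and from 1.17 to 2.83 in SP2509. These ranges overlapped and the log2 difference of 0.69 did not pass the test (exact permutation p = 0.133, adjusted p = 0.133). Without vehicle replicate 4, whose ratio of 2.26 was far above the other vehicle libraries, it was 1.0003 with an adjusted exact permutation p of 0.0357. Krt13 itself averaged 24885 ± 8702 (SD, n = 4) and 32126 ± 24265 (SD, n = 4 units).

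**Figure D4:**
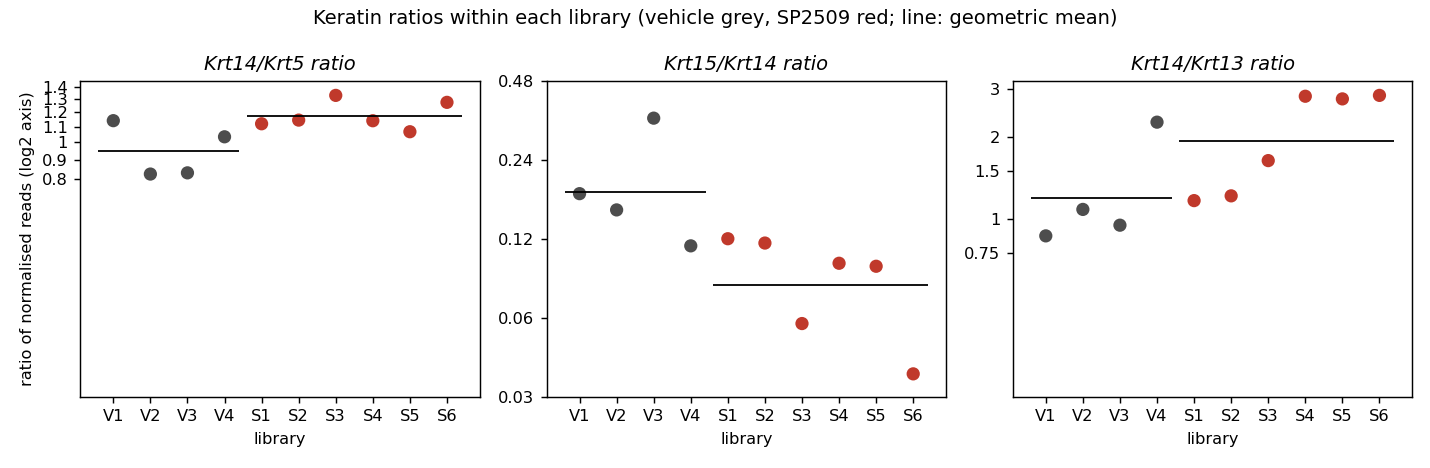
Ratio of normalised reads of Krt14 to Krt5, Krt15 to Krt14 and Krt14 to Krt13 in each library on log2 axes, vehicle in grey and SP2509 in red, with lines at the geometric means. The SP2509 points lie at 1.07 to 1.33 for Krt14/Krt5 and at 0.0367 to 0.120 for Krt15/Krt14, and the groups overlap in all 3 panels.

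Per kilobase of exon, the order of the vehicle means was Krt14 (16358 normalised reads per kb), Krt5 (13788), Krt15 (2956), Pitx1 (1388), Cd44 (441), Klf5 (407), Sox2 (337), Trp63 (221), Bmi1 (118) and Cdh3 (74.9). The vehicle ranges of Krt14 and Krt5 overlapped, as did those of Cd44 and Klf5, Klf5 and Sox2, and Sox2 and Trp63. Krt15, Pitx1, Bmi1 and Cdh3 did not overlap with their neighbours. As markers of basal cells, Krt5, Krt14 and Trp63 were detected in every library. The lowest value was that of Trp63 in SP2509 replicate 6, at 1221 normalised reads. Further basal cell markers, Col17a1, Itga6 and Itgb4, had log2 fold changes of 0.19, 0.42 and -0.16 over the 10 libraries. Without SP2509 replicate 6 these were 0.47, 0.57 and -0.03. Unlike Krt5, Krt14 and Trp63, they were not called in that fit (limma adjusted p = 0.404, 0.0617 and 0.934).

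The genes around these 10 in their pathways were read from 5 lists with 65 tested genes, of which 2 were called higher and 3 lower over the 10 libraries. That is 7.69% of them, below the 9.1% of all tested genes that were called, so the genes named here are no sign that these lists moved more than other genes. Among 12 genes of basal cell anchorage, Itgb1, the integrin beta chain shared by many cell types, rose from 1445 ± 307 (SD, n = 4) to 2246 ± 185 (SD, n = 4 units) normalised reads (log2 fold change 0.65 ± 0.15, SE; limma adjusted p = 0.0235). In the same list Lama5, a laminin chain of epithelial and vascular basement membranes, fell from 4620 ± 359 (SD, n = 4) to 2994 ± 378 (SD, n = 4 units) (log2 fold change -0.61 ± 0.13, SE; limma adjusted p = 0.0202). Neither gene's groups overlapped.

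Among 15 epithelial transcription factors, Klf4, which acts in suprabasal differentiation, was the 1 called gene (log2 fold change 0.49 ± 0.12, SE; limma adjusted p = 0.0316). The Polycomb list held 16 genes: other subunits of Polycomb repressive complex 1, the complex of Bmi1, and Cdkn2a, which is not a subunit. Of these, 0 were called higher and 1 lower, near the 4.15% of all tested genes called lower. That gene was Ring1, a ubiquitin ligase subunit, at 817 ± 59.6 (SD, n = 4) and 604 ± 22.4 (SD, n = 4 units) normalised reads, with all SP2509 libraries below all vehicle libraries. Its log2 fold change was -0.43 ± 0.09 (SE; limma adjusted p = 0.0183).

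Among 10 genes that make, bind or degrade hyaluronan, the ligand of CD44, 0 were called in either fit. The smallest p-values were those of Hyal2, a hyaluronidase, with a log2 fold change of 0.26 (limma adjusted p = 0.225), and of Cemip2, a hyaluronan-degrading membrane protein, with 0.29 (limma adjusted p = 0.242). Among 12 other genes used as stem cell markers, Gli1, the Hedgehog target and effector, fell from 566 ± 104 (SD, n = 4) to 312 ± 75.04 (SD, n = 4 units) normalised reads (log2 fold change -0.89 ± 0.20, SE; limma adjusted p = 0.0239). Without replicate 6, Jag2 was called lower beside it. With the close pairs averaged, none of the genes called in these lists passed, with limma adjusted p of 0.0910 for Itgb1, 0.0774 for Lama5, 0.130 for Klf4, 0.0819 for Ring1 and 0.0751 for Gli1.

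Patterns over the 8 units were compared for 12620 genes (mean of 50 or more). Genes with provisional (Gm or Rik) or shared symbols were then left out. Of the rest, those most like Krt14 were Bzw1 (Pearson r = 0.99, Spearman rho = 0.905), Acsl5, Txndc17, Il13ra1 and Npm3. Those most like Trp63 were Tmem165 (Pearson r = 0.99, Spearman rho = 1), Capg, Serpinb10, Clic1 and Ankrd50. The genes named have the highest of the remaining correlations over the same 8 units, with the same scaling and the same low value in replicate 6. They are given as a description without a test.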

How the data were processed

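Poly-A RNA of 10 tongue samples was sequenced (4 vehicle, 6 SP2509). HISAT2, featureCounts and the build mm10 appear in the submitters' processing notes, while for their versions, the annotation and the strand setting nothing was given in the sources used here. Judging by the numbers, the signal values deposited by the authors are gene counts scaled by a single size factor per library, since 100% came within 0.01 of whole reads. Of 27151 Ensembl IDs, 27113 matched a symbol. Coordinates are from GENCODE M21 (GRCm38).

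The test was limma 3.58.1 (R 4.3.3) (trend, robust) on log2(value + 1), two-sided, on 17088 genes with at least 10 in at least 4 libraries, adjusted by Benjamini-Hochberg over all of them and called under 0.05. Fold changes on this scale understate the change of low genes. edgeR 4.0.16 and DESeq2 1.42.0 were run on the recovered reads. The limma script was tested on simulated data. Further settings tried were another pseudocount, no filter, quantile normalization, rescaling outside mitochondrial genes, no trend, a replicate block, libraries left out, averaged close pairs, and muscle, keratinocyte and suprabasal covariates. Leaving out SP2509 replicates 1 and 2, the covariate without Epcam, the suprabasal covariate and combinations of settings were added after the data were seen. The 10 genes and all lists were chosen with earlier results of these data known. Named genes are the 10 and up to 4 called genes of each list (otherwise the 2 with the smallest p). The 5 genes most like Krt14 and Trp63 were also named, leaving out provisional and shared symbols. The keratins of shared sequence, Epcam, Jag2, Col17a1, Itga6 and Itgb4 were named after their values were seen. A few results on other genes and 1 sequence are left out of this text. Permutation tests used NumPy 2.4.6 in Python 3.11.15, tables pandas 2.3.3 with NumPy, and figures matplotlib 3.10.9.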

Additional observations from a re-analysis of the deposited data

Results flagged for a closer look

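In 26 groups of 4 or 6 values, the gap between the highest or lowest library and its nearest neighbour was compared with the whole range of the group, and 3 groups passed Dixon's criterion, which chance meets in about 1 group in 20. Sox2 had 229 normalised reads in SP2509 replicate 6, against 690 to 754 in the other 5 SP2509 libraries (gap over range 0.878). Klf5 had 992 in the same library, against 1923 to 2433 (gap over range 0.646). The ratio of Krt14 to Krt13 was 2.26 in vehicle replicate 4, against 0.866 to 1.08 in the other vehicle libraries (gap over range 0.845).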

How the results depend on the processing

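Of the 10 genes, the count called higher (0 over the 10 libraries) was 1 with DESeq2, 4 with the replicate block, 1 with a muscle covariate (Krt14), 3 with a suprabasal covariate (Krt14, Trp63 and Cdh3), 3 with close pairs averaged and SP2509 replicate 6 left out, and 0 to 4 with each library left out in turn (4 without SP2509 replicate 6 and 0 in the other 9 cases). The count called lower (0) was 3 with the keratinocyte covariate, 2 with that covariate without Epcam, 3 with it and close pairs averaged and 1 with it and without replicate 6. With values rescaled outside mitochondrial genes, 0 of the 10 were called higher and 0 lower. That setting gave log2 fold changes of 0.33 for Krt5, 0.64 for Krt14, 0.31 for Trp63 and 0.52 for Cdh3.

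With each library left out in turn, the log2 fold changes ran from 0.36 to 0.77 for Krt5, 0.62 to 1.06 for Krt14, -0.59 to 0.11 for Krt15, 0.35 to 0.67 for Trp63, -0.33 to 0.12 for Sox2, -0.12 to 0.10 for Bmi1, 0.52 to 1.01 for Cdh3, -0.19 to 0.071 for Klf5, -0.093 to 0.16 for Cd44 and -0.15 to 0.22 for Pitx1. Their median ran from -0.05 to 0.19. The log2 ratios ran from 0.24 to 0.40 (Krt14/Krt5), -1.40 to -0.87 (Krt15/Krt14) and 0.54 to 1.0003 (Krt14/Krt13).

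Signs differed from the 10-library fit as follows, and the cause was not tested. Quantile normalization gave Bmi1 -0.078 and Cd44 -0.069, and rescaling outside mitochondrial genes, which moved the median of all genes to -0.13, gave Bmi1 -0.14 and Cd44 -0.15. Pitx1 was 0.076 in edgeR and 0.031 in DESeq2. Cd44 was -0.035 with close pairs averaged, -0.15 without SP2509 replicates 1 and 2 and -0.044 with the suprabasal covariate. The muscle covariate gave Krt15 0.42, Sox2 0.18, Bmi1 -0.10, Klf5 0.21 and Pitx1 0.45. The keratinocyte covariate gave Krt5 -0.042 and Cd44 -0.33, without Epcam Cd44 -0.29, and with close pairs averaged Krt5 -0.055 and Cd44 -0.31. It gave Trp63 -0.050, Bmi1 -0.32 and Cd44 -0.62 without replicate 6. Close pairs averaged without replicate 6 gave Krt15 0.073, Sox2 0.14, Bmi1 -0.079, Klf5 0.10 and Pitx1 0.25.

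Libraries of the same number did not deviate together (correlations 0.126, 0.0324, -0.198 and 0.125), so the numbers were not taken as a pairing. The fit with the replicate block, in which SP2509 replicates 5 and 6 have no partner and add nothing to the fold change, called Krt5, Krt14, Trp63 and Cdh3 higher, where 6.58% of genes were called higher, and gave Krt15 0.21, Sox2 0.13, Bmi1 -0.055, Klf5 0.073 and Pitx1 0.28. In the replicate block the log2 ratios were 0.32 for Krt14/Krt5 and -0.95 for Krt15/Krt14, with adjusted exact permutation p of 0.25 and 0.188, but the 16 sign flips of 4 pairs cannot give a p below 0.125, so these p-values say nothing about stability. They were 0.35 and -1.38 with close pairs averaged, and 0.36 and -1.30 without SP2509 replicates 4 and 5. Among the 10 genes Cdh3 in vehicle rested on the fewest reads of a group (993 over 4 libraries).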
